A study of Homo sapiens with 8 samples.

Results

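A group of 5 genes that act in cell death and survival, PDCD4, TP53INP1, BBC3, MCL1 and IP6K2, was examined for RFX7 binding in U2OS, a human osteosarcoma cell line. They are 5 of 20037 protein-coding genes on the assembled chromosomes of RefSeq GRCh38.p14. They were chosen from the deposited peak lists themselves, and each peak whose midpoint lay inside a gene or within 50 kb of either end was taken: 7 of the 304 Nutlin-3a intervals and 2 of the 213 DMSO intervals. That a gene has an interval is therefore a property of its selection and is given here as a description, without a test. Chromatin immunoprecipitation with sequencing (ChIP-seq) used 3 µg of an RFX7 antibody. Cells had received Nutlin-3a at 10 µM or the solvent DMSO for 24 h, and the labels give no other treatment or genetic change in any group. Each treatment had 2 RFX7 samples and 2 input samples and gave 1 merged list of peaks. The values below therefore have no error between replicates, and how deeply the libraries were sequenced is unknown.

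RFX7 belongs to the regulatory factor X family, whose members share a winged-helix DNA-binding domain and recognise the X-box, a sequence built from a pair of inverted half-sites. Nutlin-3a keeps MDM2 from binding p53, which stabilises p53 and raises the expression of its target genes. Among the 5 genes, BBC3 encodes PUMA, a BH3-only protein that binds and neutralises the survival members of the BCL2 family, and MCL1 encodes one of those survival members. TP53INP1 is a p53-induced nuclear protein that promotes cell death and autophagy. IP6K2 is an inositol hexakisphosphate kinase that makes inositol pyrophosphates and sensitises cells to apoptosis. PDCD4 is a tumour suppressor that inhibits translation by binding the RNA helicase EIF4A1.

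RefSeq promoter sequences of GRCh38.p14, which run from 250 bases before to 50 after a listed start, were matched for 3 of the 5 genes, PDCD4, BBC3 and IP6K2. TP53INP1 and MCL1 were not matched. The PDCD4 and IP6K2 sequences are shown because an RFX7 interval lies on them. Each is the 250 bases before the listed start, printed 5′ to 3′ on the gene's strand, chr10:110871678-110871927 on the plus strand for PDCD4 and chr3:48717222-48717471 on the minus strand for IP6K2. Of these bases, 194 of PDCD4 and all 250 of IP6K2 were inside the Nutlin-3a interval. Capitals mark matches, on either strand, to an X-box half-site of 6 letters or to CCAAT, the element that NF-Y binds and that accompanies the X-box in MHC class II promoters. The half-site had 4 forms: the first was AGCAAC and the second form was AGTAAC, while a leading G gave the third form as GGCAAC and the fourth form as GGTAAC.
PDCD4: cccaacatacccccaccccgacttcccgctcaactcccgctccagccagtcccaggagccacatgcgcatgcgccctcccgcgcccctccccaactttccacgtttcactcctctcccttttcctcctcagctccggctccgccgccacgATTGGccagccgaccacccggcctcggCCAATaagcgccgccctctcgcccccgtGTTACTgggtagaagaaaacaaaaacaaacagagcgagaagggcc
IP6K2: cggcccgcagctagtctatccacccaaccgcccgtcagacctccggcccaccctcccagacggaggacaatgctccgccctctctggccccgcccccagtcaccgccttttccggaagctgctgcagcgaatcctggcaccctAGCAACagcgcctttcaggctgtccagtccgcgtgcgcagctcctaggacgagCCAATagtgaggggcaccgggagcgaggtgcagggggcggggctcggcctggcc

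Both sequences held 1 half-site and at least 1 CCAAT element. In PDCD4 the half-site read GTTACT, the reverse complement of AGTAAC, and began 45 bases before the start. Its CCAAT elements began 100 bases before the start, where the letters read ATTGG, and 73 bases before it. In IP6K2 the half-site read AGCAAC and began 107 bases before the start, and the CCAAT element began 54 bases before it. All 5 matches lay inside the Nutlin-3a intervals, 194 to 251 bp from the interval midpoint. The BBC3 promoter sequence lay outside every interval. It held an AGTAAC that began 14 bases after the listed start and an ATTGG that began 87 bases before it.

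These elements are common. Of all 35116 promoter sequences of 300 bases in the table, 32.5% held a half-site of the 4 forms on either strand and 34.6% held CCAAT on either strand. GTTGCC alone, on either strand and already 1 of the 4 forms as GGCAAC, was found in 12.2% of all promoter sequences and in 0 of the 3 matched genes. A pair of facing half-sites with 0 to 3 bases between them, the X-box, was in 0.672% of all promoter sequences and in none of the 3. Among the 43 promoter sequences that lay wholly inside a Nutlin-3a interval, IP6K2's included, 34 (79.1%) held a half-site of the 4 forms, 37 (86.05%) held CCAAT and 10 (23.3%) held GTTGCC. The X-box pair was in 0 of the 43. If the 43 were independent, that would allow a share of up to 6.98% at about 95% confidence (3 divided by 43). Some of the 43 overlap one another or belong to 1 gene, so they are not independent and a larger share is allowed. Their median G+C content was 63.7%, against 58.7% in all promoter sequences, 65.7% in PDCD4 and 66.7% in IP6K2, and its part in the shares was not tested. A match is a run of letters, not a measured site.

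The intervals lay in 3 arrangements. At PDCD4, TP53INP1 and IP6K2 a single interval sat on a gene boundary and was listed only after Nutlin-3a. Most intervals were listed only after Nutlin-3a, since no more than 22 of all 304 overlapped a DMSO interval, so this is not particular to these genes. At BBC3 there were 3 Nutlin-3a intervals, 1 of them inside the gene and the others 8860 and 10187 bp away, and 1 DMSO interval. At MCL1 the interval was in both lists and was nearer to a boundary of ADAMTSL4 than to one of MCL1. All 5 genes thus had a Nutlin-3a interval, where 2.94% of protein-coding genes had one at that distance, and 2 of 5 had a DMSO interval, where 0.559% had one. Since those lists chose the genes, nothing is read from that difference.

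**Figure D1:**
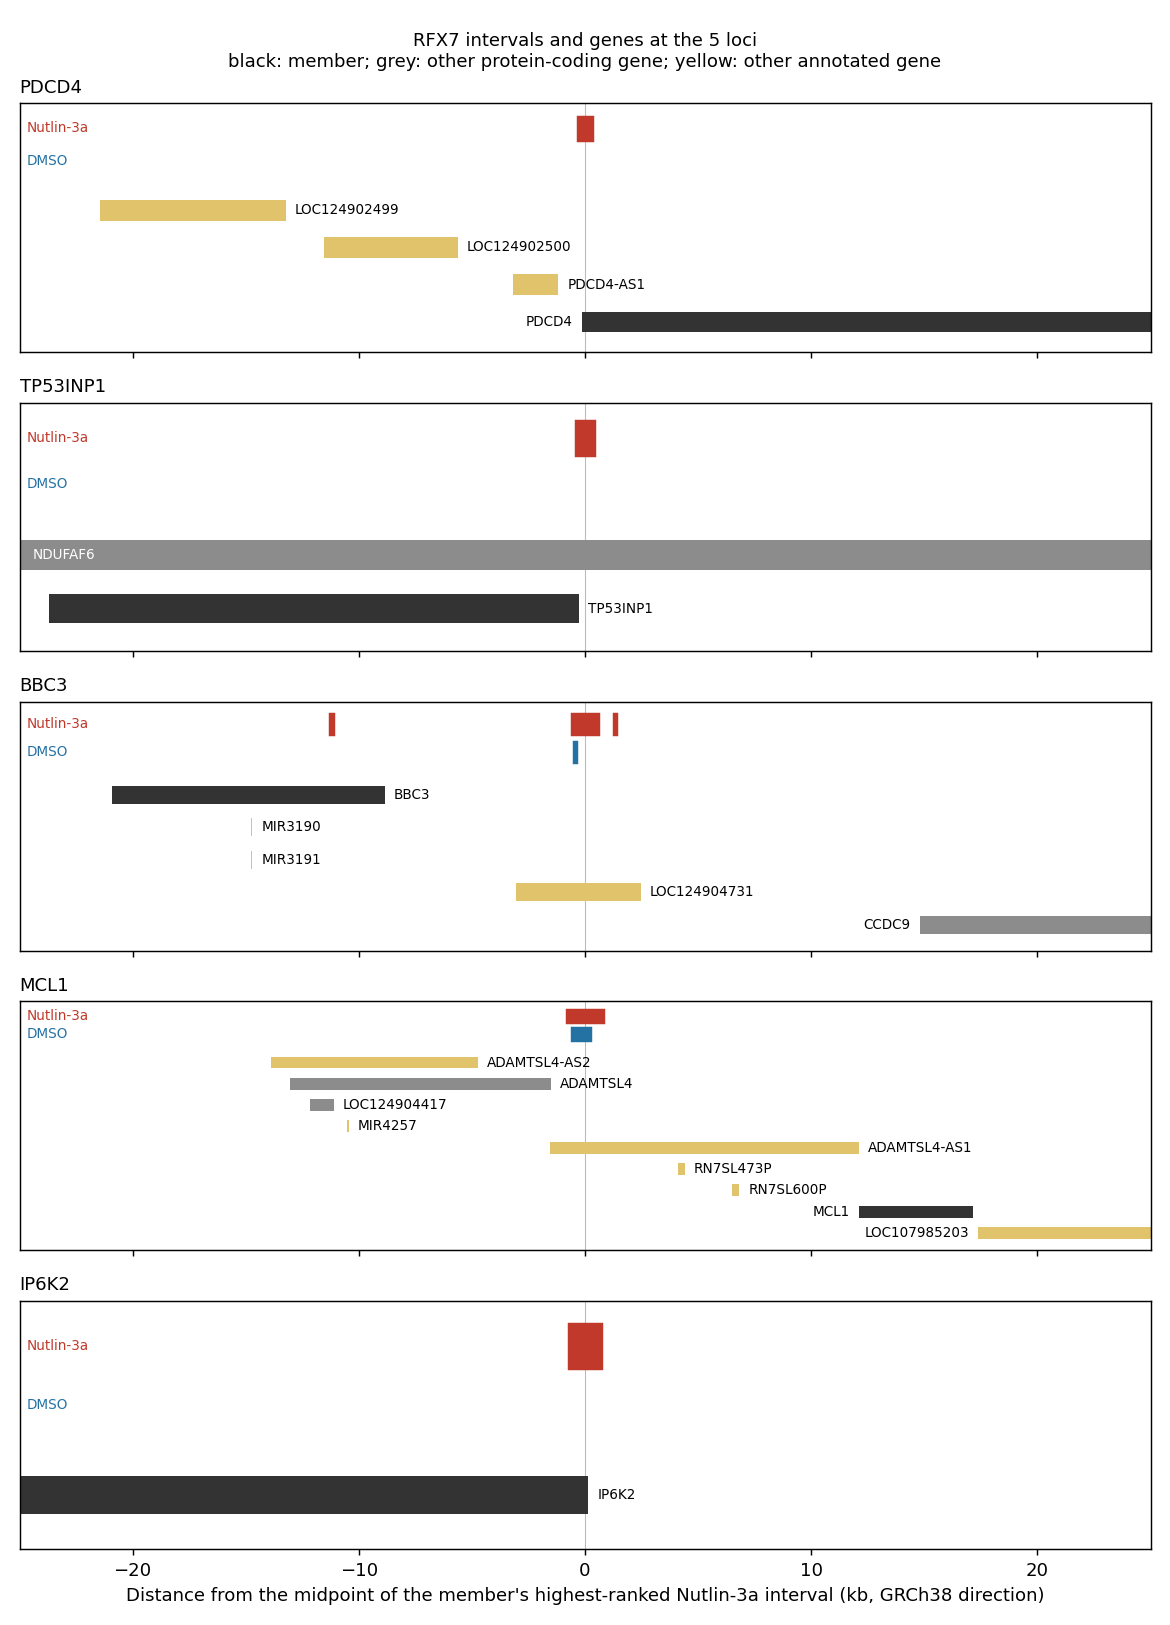
RFX7 intervals of the Nutlin-3a list (red) and the DMSO list (blue) and all annotated genes within 25 kb, by distance in kb from the midpoint of each member's highest-ranked Nutlin-3a interval. The intervals at PDCD4, TP53INP1 and IP6K2 sit on the gene boundary, the BBC3 intervals lie inside and beside the gene, and the interval in the MCL1 window sits between ADAMTSL4 and MCL1, inside ADAMTSL4-AS1.

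BBC3 (GeneID 27113, chromosome 19, 47220824 to 47232860), a direct target of p53, was the only member with several intervals. The interval inside the gene, at 47230393 to 47230625, was 233 bp wide, with an enrichment of 5.93-fold over background and a q value of 11.9 on the −log10 scale. It ranked 128 of 304 by −log10 q and 99 by fold enrichment. Its midpoint lay 2158 bp downstream of the listed start of this minus-strand gene. It was absent from the DMSO list. The second interval, at 47241106 to 47242335, was the strongest of the 3. It was 1230 bp wide, enriched 7.37-fold at a −log10 q of 25.6, and ranked 56 by −log10 q and 52 by fold enrichment. Its midpoint was 9053 bp upstream of the listed start. The last, at 47242945 to 47243149, followed after a gap of 609 bp, was 205 bp wide and ranked 193, enriched 4.22-fold at a −log10 q of 7.74.

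The second BBC3 interval was also the one listed after DMSO. The DMSO interval, at 47241194 to 47241365, was 172 bp wide and lay wholly within it, enriched 3.64-fold at a −log10 q of 3.86. It ranked 34 of 213 by −log10 q and 20 by fold enrichment. The Nutlin-3a interval extended 88 bp further on the BBC3 side and 970 bp further on the other, so the midpoints were 441 bp apart. BBC3 was the nearest protein-coding gene to all these intervals, ahead of CCDC9 and SAE1. The long non-coding RNA gene LOC124904731 was nearer to the second and the last, whose midpoints lay within it, 2474 and 1148 bp from its listed start. The strongest RFX7 interval at BBC3 thus lay in a neighbouring non-coding gene, and the interval within BBC3 was a weaker one found after Nutlin-3a only.

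TP53INP1 (GeneID 94241, chromosome 8, 94925972 to 94949378) had 1 interval, at 94949213 to 94950092, which spanned the gene's higher boundary with its midpoint 274 bp beyond it. It was 880 bp wide and enriched 7.69-fold, at a −log10 q of 30.05. It ranked 35 of 304 by −log10 q, a value it shared with 4 other intervals, and 41 by fold enrichment. No DMSO interval was in the window, and the nearest on the chromosome was 2520336 bp from the gene. The midpoint also lay inside NDUFAF6, a mitochondrial complex I assembly factor whose span contains all of TP53INP1 and whose nearer boundary was 53853 bp away.

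IP6K2 (GeneID 51447, chromosome 3, 48688003 to 48717221) had the member interval with the highest −log10 q in the Nutlin-3a list, while the MCL1 window's interval ranked above it by fold enrichment and by width. The interval, at 48716335 to 48717814, was 1480 bp wide and contained the promoter sequence shown above in full. Its midpoint lay 146 bp downstream of the start. It was enriched 9.15-fold at a −log10 q of 43.97 and ranked 13 of 304 by −log10 q, 18 by fold enrichment and 6 by width. The DMSO list had no interval in the window, the nearest being 8724570 bp from the gene. The next protein-coding genes, PRKAR2A and NCKIPSD, had boundaries 27516 and 31159 bp from the midpoint.

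PDCD4 (GeneID 27250, chromosome 10, 110871928 to 110900006) had 1 Nutlin-3a interval, at 110871734 to 110872426, which covered the start with its midpoint 152 bp downstream. It was 693 bp wide and had a fold enrichment of 8.11. Its −log10 q of 27.4, shared with 2 other intervals, ranked 48 of 304, while its fold enrichment ranked 30. The next gene, the antisense PDCD4-AS1, had a boundary 1176 bp away, and the nearest other protein-coding gene, BBIP1, was 26650 bp away. No DMSO interval was in the window, and the nearest was 4833616 bp from the gene.

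MCL1 (GeneID 4170, chromosome 1, 150574558 to 150579610) was the member whose window held the first-ranked DMSO interval, but the interval was not nearest to MCL1. The DMSO interval, at 150561813 to 150562730, was enriched 6.68-fold at a −log10 q of 22.8 and ranked 1 of 213 by each of these and by width, at 918 bp. The Nutlin-3a interval, at 150561590 to 150563311, contained it and was 1722 bp wide and enriched 10.6-fold, at a −log10 q of 41.3. It ranked 16 of 304 by −log10 q, 6 by fold enrichment and 3 by width. The site was thus near the top of both lists, and the midpoints differed by 179 bp.

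The Nutlin-3a midpoint was 12107 bp from the lower boundary of MCL1, 1513 bp from the end of ADAMTSL4, which encodes a secreted protein of the fibrillin microfibrils, and 11100 bp from LOC124904417. It lay inside ADAMTSL4-AS1, a minus-strand non-coding gene whose listed start is 6 bp from the MCL1 boundary and 12101 bp from the midpoint. Counting every annotated gene, 7 had a boundary nearer to the midpoint than MCL1 did. By nearest boundary the interval is one of ADAMTSL4 and its antisense gene. The listed start of ADAMTSL4, 13042 bp from the Nutlin-3a midpoint, was farther off than its end. A further non-coding gene, ADAMTSL4-AS2, had its listed start 4726 bp away. MCL1 had no listed start. Its lower boundary was 12107 bp and its higher boundary 17159 bp from the midpoint. Which of these is its start is not given here, so MCL1 could not be compared with the others by start. These lists do not show which gene the interval acts on.

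**Figure D2:**
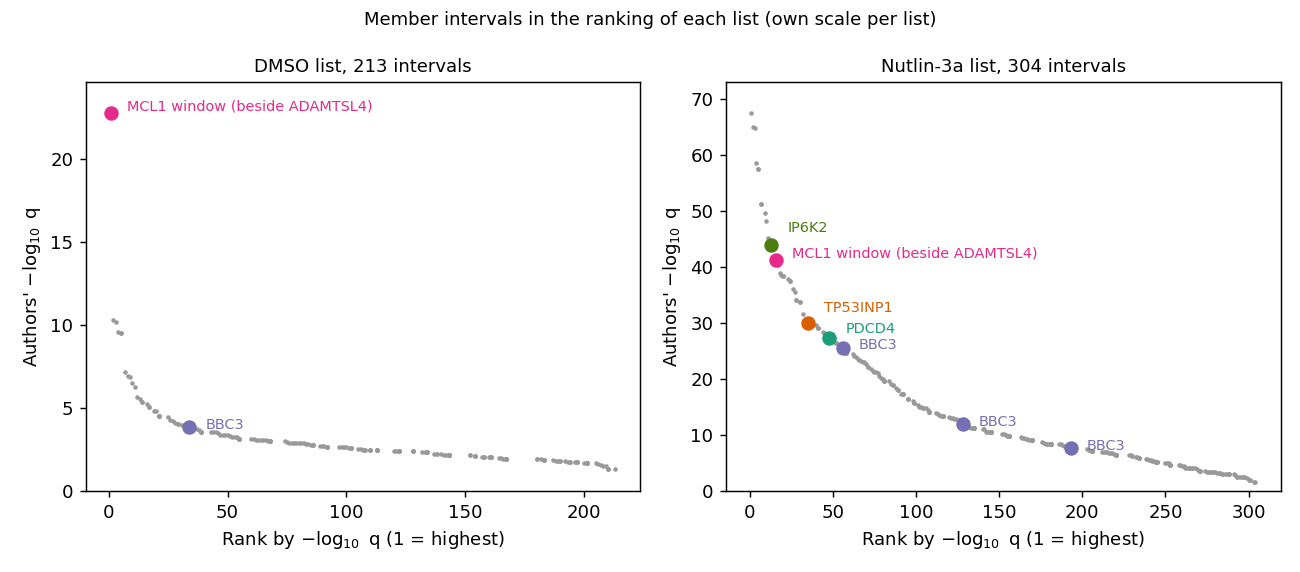
The authors' −log10 q of every interval against its rank, for the 213 DMSO intervals and the 304 Nutlin-3a intervals, with member intervals coloured; the scales of the panels are not comparable. After DMSO the interval in the MCL1 window stands first at 22.8 and the BBC3 interval at 34, while after Nutlin-3a the highest interval of each member lies between ranks 13 and 56.

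Across the 5 genes, the highest Nutlin-3a interval ranked 13 (IP6K2), 16 (MCL1 window), 35 (TP53INP1), 48 (PDCD4) and 56 (BBC3) of 304. The same 5 had fold enrichments of 7.37 to 10.6 and widths of 693 to 1722 bp, where the list's median was 4.71 and 339.5 bp. The other BBC3 intervals were narrower than that median. The genes were chosen from these lists and only the highest interval of each was compared, so nothing is read from the difference. With no replicate values, neighbours in this order could not be told apart by an error. In that ranking, the IP6K2 interval stood between intervals nearest to FMOD and RCL1, the MCL1 window's between TCAIM and KLF9, and BBC3's between TTC8 and ATP5IF1. The FMOD and ATP5IF1 intervals lay 13411 and 9650 bp from those genes and are the ones described below at BTG2 and SESN2. TP53INP1 was followed by BRD2 and tied with the interval 139 bp from an end of CKS2, which had the same fold enrichment. PDCD4 was followed by SHC3 and tied with an interval 12591 bp from EVI5, again with the same fold enrichment.

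**Figure D3:**
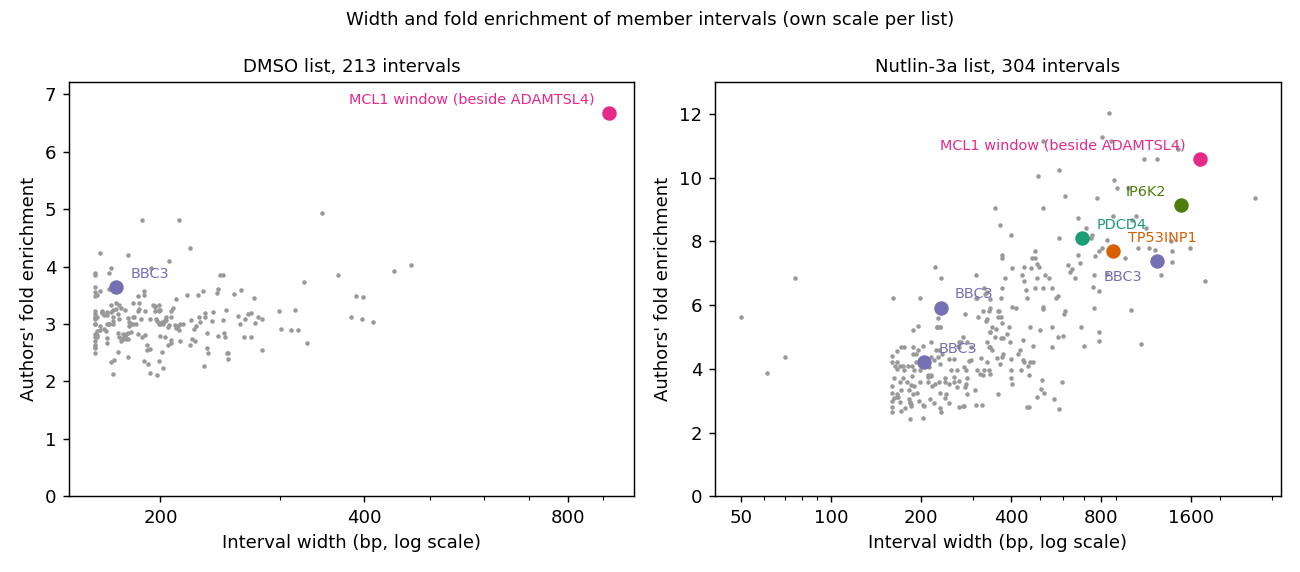
Width in bp (log scale) against the authors' fold enrichment for every interval of the DMSO and the Nutlin-3a list, with member intervals coloured. The MCL1 window's interval is the widest of the DMSO list at 918 bp, and the 3 BBC3 intervals after Nutlin-3a range from 205 to 1230 bp.

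No interval at the 5 genes lay close to the 50 kb limit. The farthest counted midpoint was 12286 bp from its gene, the DMSO interval in the MCL1 window, and the closest one left out was 289985 bp from IP6K2, in the Nutlin-3a list. Within 5 kb, 4 of the 5 genes had a Nutlin-3a interval, where 1.11% of protein-coding genes had one, and 0 of 5 had a DMSO interval, where 0.294% had one. MCL1 was the gene without a Nutlin-3a interval at that distance.

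The members were set beside other genes of cell death. These genes were listed with earlier results of these data known, so nothing is read from their shares. Of 71 genes in 7 lists, 6 had a Nutlin-3a interval inside or within 50 kb and 3 a DMSO interval. These were 8.45% and 4.23% of the listed genes, beside the 2.94% and 0.559% of all protein-coding genes. Within 5 kb the Nutlin-3a count was 2 (2.82%) and the DMSO count 0, beside 1.11% and 0.294% of all protein-coding genes. None of 12 genes of death receptor signalling (FAS and CASP8 among them), 11 genes of the apoptosome and caspases (APAF1 and CASP9 among them), 7 of the IAP family of caspase inhibitors (XIAP, BIRC5) or 3 paralogues of the members (TP53INP2, IP6K1, IP6K3) had an interval within 50 kb in either list.

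Of 15 other BCL2 family genes, 1 (6.67%) had a Nutlin-3a interval within 50 kb, beside 2.94% of all protein-coding genes. None had a DMSO interval. The gene was BCL2L1, which encodes the survival protein BCL-XL. Its Nutlin-3a interval, chromosome 20, 31722777 to 31722936, was inside the gene and 1106 bp from an end, but ranked 282 of 304, enriched 2.80-fold at a −log10 q of 3.24. Family members of BBC3 such as PMAIP1, BCL2L11 and BAX had none. Of 5 genes for partners and turnover of PDCD4 and MCL1, EIF4A1 had a Nutlin-3a interval, ranked 108, at 36147 bp, and that interval was 256 bp from an end of FXR2.

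Among 18 genes that p53 induces in cell death or arrest, 4 (22.2%) had a Nutlin-3a interval within 50 kb. Of these, 3 (16.7% of the 18) had a DMSO interval too. The shares of all protein-coding genes were 2.94% and 0.559%. Because the 18 genes were listed with earlier results of these data known, nothing is read from that difference. Within 5 kb the counts were 1 (5.56%) and 0, where 1.11% and 0.294% of all protein-coding genes had one. GADD45A, a stress-induced growth arrest gene, had a Nutlin-3a interval 39 bp from an end, ranked 278 of 304 with a −log10 q of 3.42. SESN2, a stress-induced inhibitor of mTORC1, had one ranked 57 at 11768 bp, and the overlapping DMSO interval ranked 113 of 213. ATP5IF1 was nearer to that interval, at 9650 bp. BTG2, an antiproliferative gene, had a Nutlin-3a interval at 17615 bp that ranked 12 of 304, above every member interval, enriched 10.9-fold at a −log10 q of 44.3. The overlapping DMSO interval ranked 167 of 213, and FMOD was nearer, at 13411 bp. TIGAR, a regulator of glycolysis, had a Nutlin-3a interval at 48879 bp that ranked 33, with a −log10 q of 30.4, and the overlapping DMSO interval ranked 7 of 213. CCND2 was nearer to it, at 1428 bp. Lower-ranked Nutlin-3a intervals were also within 50 kb of these genes, at rank 230 for SESN2, 297 for BTG2, and 232 and 291 for TIGAR. Of the 6 listed genes with a Nutlin-3a interval, BCL2L1 and GADD45A were thus the ones that were themselves the nearest protein-coding gene, and their intervals ranked 282 and 278, whereas the highest intervals at BTG2, TIGAR, SESN2 and EIF4A1 ranked 12, 33, 57 and 108.

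**Figure D4:**
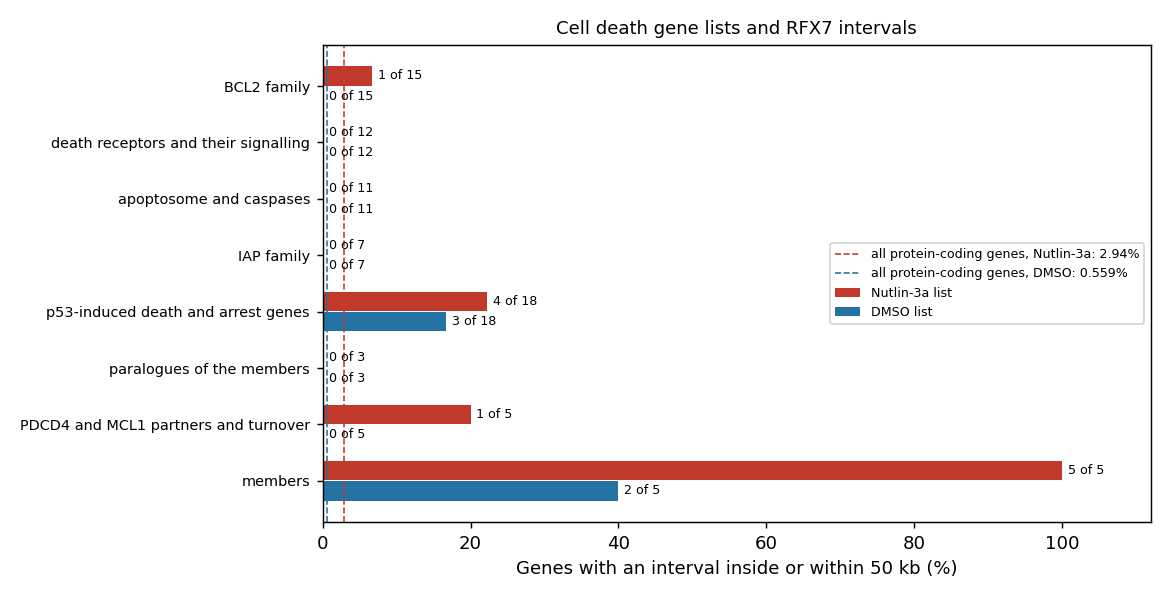
Percent of genes with an RFX7 interval inside or within 50 kb, by gene list, for the Nutlin-3a list (red) and the DMSO list (blue), with dashed lines at the share of all protein-coding genes (2.94% and 0.559%). The members stand at 5 of 5 and 2 of 5 because they were chosen from these peak lists, and 4 of the other gene lists have no gene with an interval. The gene lists were chosen with earlier results of these data known, so nothing is read from their shares.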

How the data were processed

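RFX7 ChIP-seq and input DNA were described for 8 U2OS samples in 4 groups of 2. The 2 deposited peak lists, 1 per treatment, hold intervals named as merged, and how the replicates were merged is not given in the sources used here. Per the submitters' processing notes, the build was hg38 and the tools included MACS2 2.2.7.1, SAMtools 1.10 and bedtools 2.29.2, with no settings given. The fold enrichment (a ratio over background) and the −log10 q are values deposited by the authors. The score deposited by the authors is 10 times the −log10 q cut to a whole number, in every row, and was not used. No summit is given, so midpoints were used.

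Gene positions came from RefSeq GRCh38.p14, whose table used here has no exons, so no position is called exonic, intronic or UTR. Scores were ranked within a list, with tied values sharing the best rank. Intervals were shared between lists at an overlap of 1 bp or more. A gene boundary is either end of a gene, and the nearest gene is the one with the nearest boundary. Counting used Python 3.11.15 and pandas 2.3.3 and was tested on simulated intervals. The text names the 5 genes, nearer genes, listed genes with an interval within 50 kb, and the intervals directly above and below each member in the Nutlin-3a ranking; listed genes without an interval were named as examples after the values were seen. The members and gene lists were chosen with earlier results of these data known. No test was made, because the members were chosen from these lists and each treatment has 1 list. GTTGCC and the X-box were planned; the 4 half-site forms, the X-box built from them and CCAAT were set after the data were seen.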

Additional observations from a re-analysis of the deposited data

How the results depend on the processing

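For 17 results, 49 values were recomputed, 5 of them under alternatives chosen after seeing the data. Of these, 34 stayed within 1.5 times the reported count or the exact 95% binomial interval of the rank, and 15 moved further. The binomial interval served only as a cut for this sorting and does not measure an error of a rank. Within 5 kb, the Nutlin-3a intervals at the members numbered 4, the DMSO intervals and the members with one 0, and the other cell death genes 2 (Nutlin-3a) and 0 (DMSO). At a −log10 q of at least 10, which leaves fewer rows by construction, 1 DMSO interval and 1 member remained, the MCL1 window's. Requiring 50% of both intervals left 1 site in both lists, and midpoints within 100 bp left 0. Counting all annotated genes, 0 DMSO intervals were nearest to a member. Ranked by fold enrichment, the Nutlin-3a intervals at PDCD4 and MCL1 stood at 30 and 6 and the DMSO interval at BBC3 at 20; the cause was not tested. The 4 half-site forms and CCAAT were each found in 3 matched promoters, against 0 for GTTGCC. Distances to listed starts could be set for PDCD4, BBC3 and IP6K2 only.

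No paired analysis was possible because the 2 lists merge the replicates, and replicates could not be left out in turn for the same reason. The unknown depth limits any comparison of interval number, width or score between treatments, and an interval absent from a list is not shown to be unbound.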
